A study of Mus musculus
Mus spretus with 18 samples.

Results

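The 10 genes described here make proteins of clathrin-coated vesicles and of the machinery that shapes and cuts them: the clathrin light chains Clta and Cltb, the adaptor subunits Ap1b1 and Ap2b1, the accessory proteins Picalm, Eps15, Itsn1 and Bin1, and the dynamins Dnm1 and Dnm2. They were chosen by gene symbol, with earlier results of these data known, from 38924 genes with an expression value. They held 177 of 120601 autosomal skipped exon events, on 123 distinct exons. A skipped exon event is 1 exon with a given pair of flanking exons, so that 1 exon can stand in several events that share reads. Inclusion was measured as percent spliced in (PSI), written here from 0 to 1: the share of an event's reads, on its inclusion and skipping junctions, that include the exon, with each count divided by the effective length of its form. The inclusion reads of an event add both junctions of its exon, and either junction can also come from transcripts with another neighbouring exon.

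The animals were F1 hybrids of a C57BL/6J mother and a SPRET/EiJ father, so every cell carried both parental alleles in the same nucleus. Cortex, Heart, Kidney, Lung, Spleen and Liver came from 2 female mice aged 8 weeks, and ESC are 2 clones of embryonic stem cells with the same parental genomes. The strain labels of the Liver libraries read C57BL/7J and C57BL/8J in place of C57BL/6J. A single F1 fibroblast line was treated for 4 h with 0.1 µM pladienolide B (PladB), an inhibitor of the SF3B complex of the spliceosome, or with its solvent (DMSO). There were 18 libraries in 9 groups of 2. The fibroblast replicates came from 1 line, so p-values there rest on the spread between libraries of that line and not between animals. In the splicing tests that spread was moderated across all events, so a p-value does not rest on the spread of its own exon alone.

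Clathrin triskelia, built of heavy and light chains, polymerize into a coat on the membrane, and AP-2 at the plasma membrane or AP-1 at the trans-Golgi network link the coat to cargo. PICALM, EPS15 and intersectin gather adaptors and cargo at the growing pit, BIN1 (amphiphysin 2) binds and bends membrane, and dynamin constricts the neck until the vesicle is released. Neurons use this pathway to recover synaptic vesicle membrane, and brain forms of the clathrin light chains, BIN1 and the dynamins are well known. In muscle, BIN1 and dynamin 2 take part in forming T-tubules.

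Summed over autosomal events, so that a read shared by events counts more than once, the tissue libraries held 45055286 to 128494506 junction reads and the fibroblast libraries 121091735 to 144154268. Reads that could be given to 1 allele came to between 10129390 and 46565133 per allele and library. Each tissue's marker genes were highest in that tissue for all markers of every list. The 4 liver markers summed to 1.42e+03 and 1.22e+03 TPM (transcripts of a gene relative to all transcripts, corrected for length) in Cortex, against 1.09e+05 and 1.28e+05 in Liver, and the 4 heart markers to 955 and 765 TPM in Lung, against 4.76e+04 and 4.8e+04 in Heart. The liver markers were Alb, Apoa1, Ttr and Cyp3a11, and a sum does not show which gene of a list or which cell type gave it. The part of these sums in the results was not tested. The 2 ESC clones differed in the expression of the 10 genes by a median of 1.4 times and up to 2.7 times, whereas the medians of the other groups were 1.03 to 1.15 times. Cortex, Heart and Kidney were sequenced with longer reads than Lung, Spleen and ESC, and Liver came from an earlier experiment (the longer reads were trimmed to a common length before alignment), so tissue and sequencing run cannot be told apart in full. In bulk tissue, a change of splicing within a cell type and a change in the share of a cell type cannot be told apart.

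Each of the 10 genes had at least 1 exon whose inclusion differed between tissues. An event was tested where each library of at least 2 tissues had 20 or more reads, and it was called at an adjusted p under 0.05 in a quasi-binomial model across all events together with a largest difference in tissue mean PSI of 0.1 or more. By this rule 23 of 88 tested events (26.1%) were called, on 19 exons in all 10 genes, against 8.43% of all 47963 events tested. Because the genes were chosen with earlier results of these data known, such shares here and below do not test them as a group. Of the 177 events, 148 were listed in the tissue tables and 115 in the fibroblast table. Those of the 148 that were not tested were not listed in 2 or more tissues, or lacked 20 or more reads in each library of 2 or more tissues. The number of exons tested over tissues ran from 3 in Ap2b1, 4 in Cltb and 4 in Picalm to 12 in Eps15 and 13 in Dnm2. Among 49 other genes of the same pathway, 61 of 307 events (19.9%) were called, in 25 of the 46 genes with a tested event. The median difference over all tested events was the same for the 10 genes and for all genes (0.0145), and 52 of the 72 tested exons of the 10 genes varied by under 0.1 between tissues.

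The difference between the highest and the lowest tissue mean PSI is called the switch score. Of the 72 exons, 16 (22.2%) in 9 genes had a switch score of 0.3 or more, against 17.1% of exons of the other pathway genes and 5.45% of exons of all genes. Eps15 was the gene with none. The exon just inside this limit was a 135-bp exon of Dnm1 with a score of 0.335, and the one just outside was a 30-bp exon of Dnm2 with 0.249. The 16 exons were short, with a median of 48 bp and a range of 12 to 150 bp. Of these, 5 were micro-exons of 30 bp or less (31.2%), against 12.6% of the 2220 exons of all genes past the same score. The lengths of 15 of the 16 (93.8%) were multiples of 3, against 67% of such exons of all genes and 35.7% of the 56 exons of these 10 genes under the limit. These shares are given side by side, without a test. A length that is a multiple of 3 keeps the reading frame only where the exon is coding, which was not checked.

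**Figure D1:**
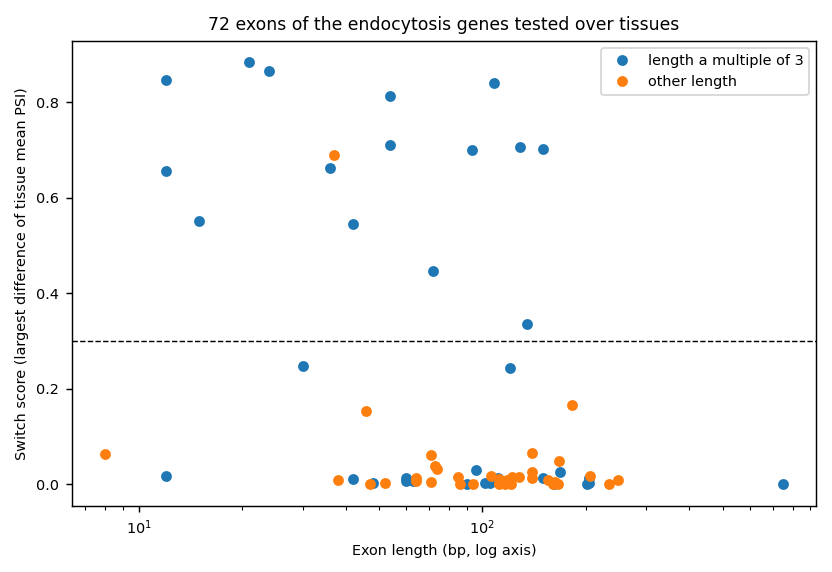
Switch score (largest difference of tissue mean PSI, 0 to 1) against exon length (bp, log axis) for the 72 exons of the 10 genes tested over tissues, coloured by whether the length is a multiple of 3, with the limit of 0.3 as a dashed line. The 16 exons above the line are 12 to 150 bp long, and the 37-bp exon of Dnm1 is the only one of them whose length is not a multiple of 3.

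The member events called in Cortex all lay in one direction. Cortex was contrasted with the unweighted mean of the other tissues. Of 45 member events, 17 (37.8%) were called, on 13 exons in 8 genes, and in all 17 Cortex lay above that mean. Over all 19107 events tested, 11.4% were called, 6.26% higher and 5.1% lower. The median difference was 0.0255 for the members and 0.000981 for all events. In the other pathway genes 44 of 139 events were called, 29 higher and 15 lower. Dnm2 and Eps15 had no event called in Cortex. A call above the mean does not make Cortex the highest tissue. For the 24-bp exon of Picalm, Kidney and Liver lay above Cortex. In the event of the 54-bp exon of Clta whose downstream flank is the 36-bp exon, Kidney and ESC lay above Cortex. The mean in that event includes the low value of Heart.

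Heart differed in both directions. There, 13 of 42 member events (31%) in 9 genes were called, 5 higher and 8 lower, against 8.4% of all 17612 events (4.25% higher and 4.15% lower). Among the other pathway genes, 23 of 128 events were called in Heart, 15 higher and 8 lower. Of the 8 lower member events, those of the 54-bp exon of Cltb (difference -0.136), the 93-bp exon of Bin1 (-0.126) and the 15-bp exon of Itsn1 (-0.105) compare Heart with a mean that includes the high value of Cortex. Heart did not lie below the range of the remaining tissues for these 3 exons.

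**Figure D2:**
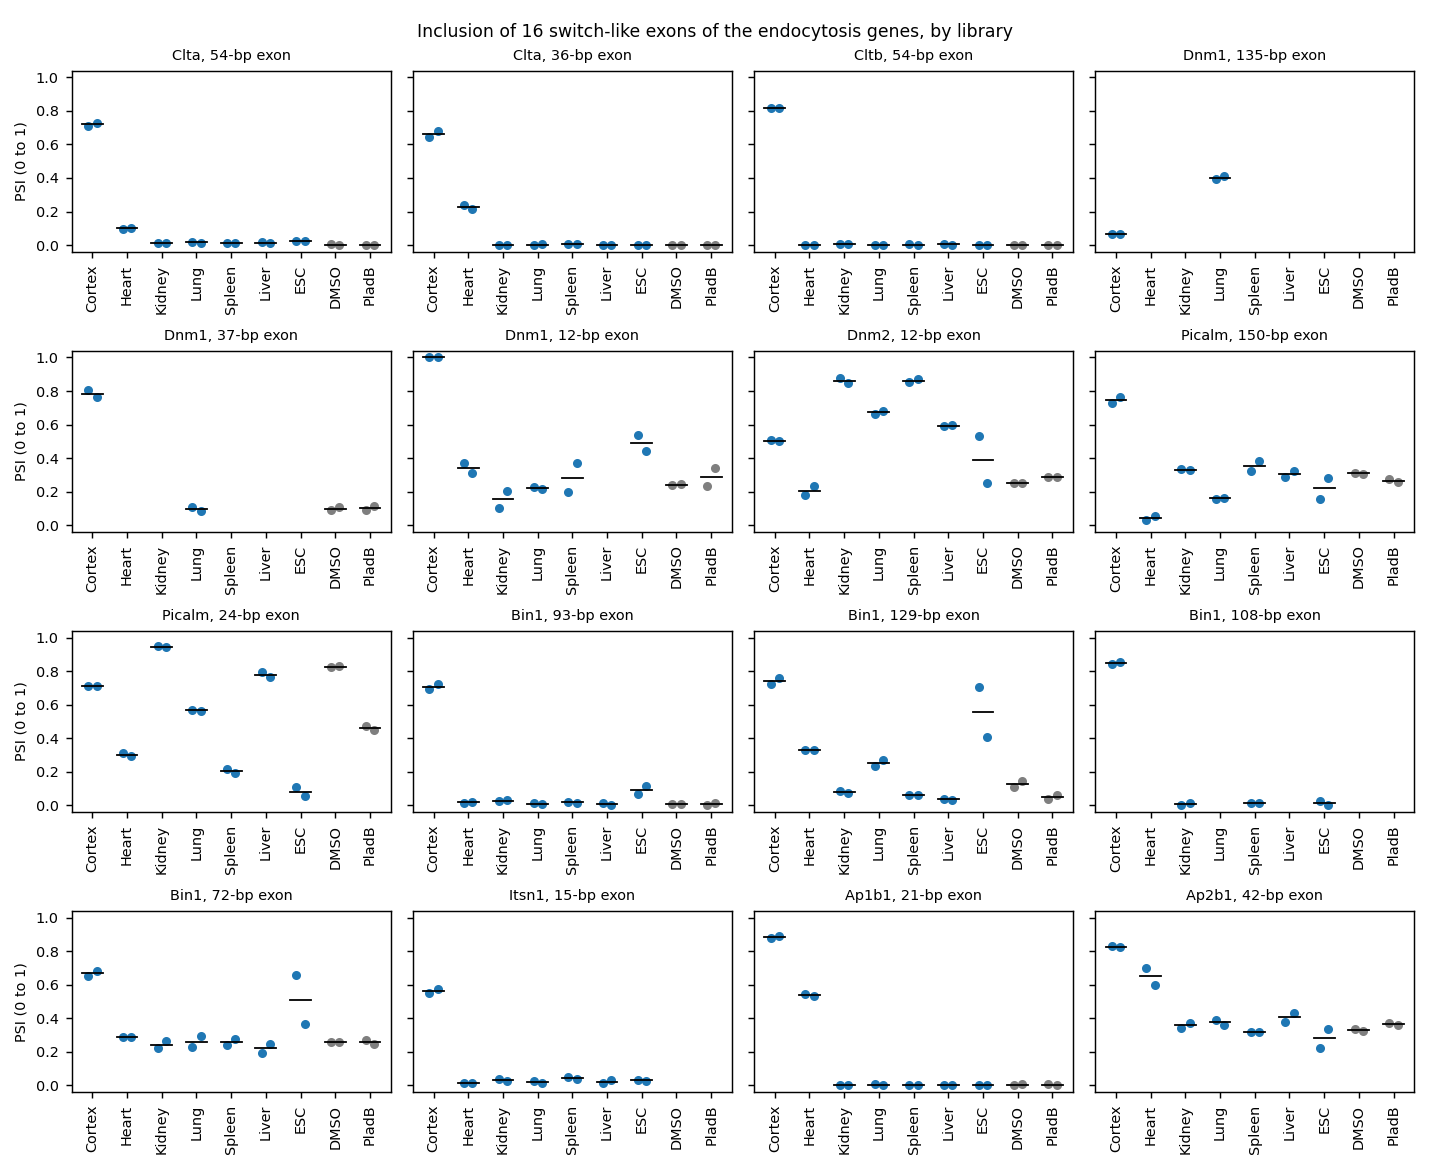
PSI (0 to 1) of the 16 exons with a switch score of 0.3 or more in each library; points are libraries, bars are group means, blue marks the 7 tissues and grey the fibroblasts, and an empty position means that the event was not listed or had under 20 reads there. Cortex is highest in 12 of the 14 panels with 4 or more tissues, with Dnm2 and the 24-bp exon of Picalm as the exceptions.

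The light chains each gained a short insert in Cortex. The 54-bp exon of Clta (chr4:44030215-44030268, mm10), read against direct splicing of the exons on either side of the alternative region, had PSI 0.712 and 0.730 in Cortex. It had 0.097 and 0.101 in Heart and 0.010 to 0.024 in the other 10 tissue libraries, on 2057 reads or more. Cortex exceeded the mean of the other tissues by 0.692 (quasi-binomial adjusted p = 1.60e-16) and did not overlap any other tissue. The next exon of Clta, of 36 bp (chr4:44031400-44031435), had PSI 0.647 and 0.678 in Cortex, 0.238 and 0.212 in Heart and at most 0.006 elsewhere. The Cortex difference was 0.623 (quasi-binomial adjusted p = 1.11e-14). Heart was also above the mean of the others, by 0.113 (quasi-binomial adjusted p = 5.50e-06), a difference that came to 0.100, under the size limit, without Heart replicate 1.

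The 54-bp exon of Clta was also listed in an event whose downstream flank is the 36-bp exon. Its inclusion reads hold the junction before the 54-bp exon, which transcripts without the 36-bp exon share, so that its PSI is not the share of the 54-bp exon among transcripts with the 36-bp exon. In this event PSI was 0.901 and 0.899 in Cortex but 0.173 and 0.212 in Heart. The other tissues lay between 0.707 and 0.957, on 48 to 282 reads. Heart was 0.672 below the mean of the other tissues (quasi-binomial adjusted p = 4.13e-13). Cortex was 0.153 above the mean of the tissues other than Cortex (adjusted p = 2.23e-06), which includes the low value of Heart. Cortex lay below Kidney, at 0.909 and 0.918, and ESC, at 0.957 and 0.908. In the event whose upstream flank is the 54-bp exon, the 36-bp exon had PSI 0.784 and 0.810 in Cortex, 0.564 and 0.543 in Heart, 0.792 and 0.739 in Spleen and 0.021 in each ESC clone, and its inclusion reads likewise hold a junction shared with transcripts that lack the flank.

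Cltb, the second light chain, has an exon of 54 bp at chr13:54597026-54597079, with PSI 0.815 and 0.816 in Cortex. The 12 libraries of the other tissues lay between 0.001 and 0.006, on 778 to 3360 reads. The Cortex difference was 0.812 (quasi-binomial adjusted p = 1.78e-19). Unlike both Clta exons, this exon was not included in Heart above the level of the other tissues (0.002 in each Heart library).

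Among the adaptors, Ap1b1, the beta subunit of AP-1, had the exon with the highest switch score of all 10 genes, 0.885. This 21-bp micro-exon (chr11:5033242-5033262) had PSI 0.882 and 0.889 in Cortex and 0.548 and 0.533 in Heart, and no library of the other tissues passed 0.011. It was higher in Cortex by 0.793 (quasi-binomial adjusted p = 8.24e-18) and in Heart by 0.391 (adjusted p = 1.78e-10), each against the mean of the remaining tissues. The 3 levels did not overlap.

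Ap2b1 encodes the beta subunit of AP-2. Its 42-bp exon (chr11:83364795-83364836) followed the same order of tissues on a higher floor, with PSI 0.829 and 0.823 in Cortex, 0.701 and 0.602 in Heart and 0.222 to 0.434 in the other 10 libraries. The differences were 0.427 in Cortex (quasi-binomial adjusted p = 5.47e-11) and 0.224 in Heart (adjusted p = 6.71e-04). Without Heart replicate 1 the Heart difference was 0.174 at an adjusted p of 0.0558, so that the Heart call rested on that library.

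Picalm, which binds clathrin and phosphoinositides and sorts vesicle SNARE proteins, had a pair of exons with graded inclusion over the tissues. For the 150-bp exon (chr7:90182219-90182368), PSI was 0.729 and 0.762 in Cortex, and 0.033 and 0.055 in Heart. Kidney, Spleen and Liver lay between 0.288 and 0.383, Lung at 0.158 and 0.162, and ESC at 0.157 and 0.284. Cortex was 0.510 above the mean of the others (quasi-binomial adjusted p = 5.51e-10) and Heart 0.309 below (adjusted p = 2.28e-11), and neither overlapped another tissue.

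The 24-bp micro-exon of Picalm (chr7:90194273-90194296) had another order of tissues. Kidney was highest at 0.952 and 0.942, followed by Liver at 0.794 and 0.763, Cortex at 0.709 and 0.714 and Lung at 0.570 and 0.563. Heart had 0.313 and 0.293, Spleen 0.216 and 0.194, and ESC 0.111 and 0.054. No neighbours in this order overlapped, and the switch score was 0.865. Cortex was 0.231 above the mean of the others (quasi-binomial adjusted p = 6.85e-07) and Heart 0.245 below (adjusted p = 8.51e-08).

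Itsn1, a scaffold that binds dynamin and EPS15, had 1 exon past the limit among 11 tested. The 15-bp micro-exon (chr16:91842628-91842642) had PSI 0.552 and 0.578 in Cortex and 0.012 to 0.048 in all 12 other libraries, on 214 to 707 reads. Cortex was higher by 0.538 (quasi-binomial adjusted p = 8.47e-13). The tables also list an exon of 8 bp that overlaps it, so their reads may be split between both.

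Eps15, an EH-domain protein that binds AP-2 and ubiquitinated cargo, varied less. Its 182-bp exon (chr4:109382785-109382966) ran from 0.676 in a Heart library to 0.895 in an ESC library (quasi-binomial adjusted p = 0.0045 over all tissues). A 120-bp form with the same 3' end (chr4:109382847-109382966) ran from 0.511 to 0.819 (adjusted p = 0.00366), and was 0.107 lower in Heart than in the mean of the others (adjusted p = 0.0497). The 2 forms share their skipping reads and are not independent.

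Bin1 had the most exons past the limit, 4 of 6 tested, and all 4 were higher in Cortex. The 93-bp exon (chr18:32414945-32415037) had PSI 0.692 and 0.724 in Cortex and at most 0.115 in the other 12 libraries, where the highest values were those of ESC. Its Cortex difference was 0.680 (quasi-binomial adjusted p = 9.36e-17). The 108-bp exon (chr18:32430750-32430857) gave values that depended on its flanks. In the event that represents it, with the 72-bp exon described below as its downstream flank, PSI was 0.840 and 0.856 in Cortex and at most 0.025 in Kidney, Spleen and ESC, the other tissues with enough reads. Cortex exceeded those tissues by 0.837 (quasi-binomial adjusted p = 3.36e-13). With the same upstream flank and a flank beyond the 72-bp exon on the downstream side, PSI in Cortex was 0.028 and 0.018, on 407 and 364 reads.

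The other Bin1 exons were also used outside Cortex. The 129-bp exon (chr18:32426224-32426352) had PSI 0.725 and 0.757 in Cortex, 0.704 and 0.407 in the ESC clones, 0.329 and 0.330 in Heart and 0.235 and 0.273 in Lung. Kidney, Spleen and Liver lay between 0.032 and 0.088. The Cortex difference was 0.522 (quasi-binomial adjusted p = 3.67e-11), and the gap between both ESC clones was as wide as the gap between many tissues. Against another downstream flank, the same exon had PSI 0.893 and 0.627 in Heart, 0.277 above the mean of the others (quasi-binomial adjusted p = 0.034), on 71 and 83 reads.

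For the 72-bp exon of Bin1 (chr18:32431671-32431742), PSI was 0.651 and 0.685 in Cortex and 0.656 and 0.364 in ESC. The 10 libraries of Heart, Kidney, Lung, Spleen and Liver lay between 0.195 and 0.296. Cortex exceeded the mean of the others by 0.370 (quasi-binomial adjusted p = 7.43e-08), although the first ESC clone reached its level.

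Dnm1, the dynamin of neurons, had 3 exons past the limit. The 12-bp exon (chr2:32323179-32323190) had PSI 1.000 in both Cortex libraries, on 17614 and 18311 reads. It had 0.540 and 0.445 in ESC, 0.370 and 0.314 in Heart and 0.104 to 0.371 in Kidney, Lung and Spleen, on 62 to 353 reads, and was not measured in Liver. The Cortex difference was 0.701 (quasi-binomial adjusted p = 1.17e-11). The values outside Cortex rest on far fewer reads, since the gene was expressed at 13 TPM or less there.

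The other 2 Dnm1 exons had enough reads in Cortex and Lung alone. The 37-bp exon (chr2:32310451-32310487) had PSI 0.805 and 0.765 in Cortex and 0.109 and 0.084 in Lung (quasi-binomial adjusted p = 8.72e-05). Its event with most reads was measured in Cortex alone, with PSI 0.508 and 0.486 on 4076 and 4688 reads. The 135-bp exon (chr2:32309893-32310027) went the opposite way, with 0.067 in each Cortex library and 0.393 and 0.412 in Lung (adjusted p = 0.0131). The Lung values of the 135-bp exon rest on 39 and 24 reads. Without Lung replicate 1 the adjusted p was 0.224, and without Lung replicate 2 it was 0.119.

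Dnm2, the dynamin found in most tissues, did not share the rise in Cortex. Its 12-bp exon (chr9:21490658-21490669) had PSI 0.180 and 0.231 in Heart, the lowest tissue, and 0.507 and 0.50 in Cortex. Kidney and Spleen were highest, at 0.847 to 0.877, with Lung at 0.663 and 0.682 and Liver at 0.590 and 0.595. The ESC clones differed again, with 0.530 and 0.251. Heart was 0.441 below the mean of the others (quasi-binomial adjusted p = 7.98e-07), while Cortex was 0.093 below (adjusted p = 0.555); without ESC replicate 2 that Cortex value was -0.117 with an adjusted p of 0.00215.

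The 30-bp micro-exon of Dnm2 (chr9:21487047-21487076) had PSI 0.225 and 0.275 in Heart, 0.109 and 0.112 in Cortex and at most 0.002 in Lung and ESC. Heart was 0.212 higher than the mean of these tissues (quasi-binomial adjusted p = 1.01e-06). The exon was not listed in Kidney, Spleen and Liver. As for the other marker lists, the sum of the skeletal muscle markers does not show which gene or cell type gave it. It is therefore no measure of skeletal muscle tissue in a sample. The skeletal muscle markers summed to 4.11e+03 and 3.78e+03 TPM in Heart, higher than in any other tissue, and their part was not tested.

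The alleles of an F1 animal share every trans-acting factor of the nucleus, so the comparison of alleles within a library asks which differences arise in cis. Reads that cover a variant were counted for each allele, and an event was called where the adjusted p was under 0.05, the difference between alleles was 0.1 or more, and the PSI from both alleles together lay within 0.1 of the PSI from all reads. As a check of the allele labels, the junction reads of Meg3, an imprinted gene expressed from the maternal copy, came to between 99% and 99.8% from C57BL/6J in the 6 groups other than ESC that could be measured, and to 34.7% in ESC.

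Calls between the alleles were few among member events, as they were among all events. In Heart 2 of 34 tested events (5.88%) were called, against 3.36% of all events. In Kidney it was 2 of 44 (4.55%, all events 2.93%), and in DMSO fibroblasts 1 of 64 (1.56%, all events 2.87%). No member event was called in Cortex (of 65, all events 2.07%), Lung (50, 2.49%), Spleen (47, 2.33%), Liver (31, 2.52%), ESC (62, 0.178%) or PladB (68, 2.66%) by the quasi-binomial model without a block. At an unadjusted p under 0.05 there were 6 such events in Spleen, 5 in Lung, 4 in Cortex, 3 each in Liver and PladB, and 1 in ESC. Most differences were small: in Cortex, 58 of 65 were under 0.05. In Heart 24 of 34 were under 0.05 and 6 were 0.1 or more, and the largest, 0.418, was in an event that was not called. In Cortex 10 of the 65 events did not meet the limit against all reads and were not open to a call. The same held for 2 events each in Heart, Kidney, Lung, Spleen and Liver, and 1 in ESC.

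The alleles of Clta differed in Heart. The 36-bp exon had PSI 0.465 and 0.409 on C57BL/6J and 0.163 and 0.168 on SPRET/EiJ, a difference of 0.271 (quasi-binomial adjusted p = 4.56e-18). In the event of the 54-bp exon whose downstream flank is the 36-bp exon, PSI was 0.090 and 0.105 on C57BL/6J and 0.309 and 0.299 on SPRET/EiJ, a difference of -0.206 (adjusted p = 1.18e-06). The alleles did not overlap in either event. The junction that skips the 54-bp exon in the second event is an inclusion junction of the 36-bp exon in the first, so the events share reads and are not independent. The PSI of the 36-bp exon was 0.320 from both alleles together and 0.225 from all reads, close to the limit of 0.1 between them. Without effective lengths the difference between alleles was 0.306, but this limit was not met and the event was not called.

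In Cortex, where both Clta exons were mostly included, the alleles lay close together. The 36-bp exon had PSI 0.711 and 0.746 on C57BL/6J and 0.687 and 0.719 on SPRET/EiJ (difference 0.025, quasi-binomial adjusted p = 0.599). The difference between the allelic effects of Heart and Cortex was not tested. In the other tissues the 36-bp exon was at 0.013 or less on both alleles. For Cltb in Cortex, the 54-bp exon had PSI 0.956 and 0.948 on C57BL/6J and 0.963 and 0.964 on SPRET/EiJ, a difference of -0.012 (quasi-binomial adjusted p = 0.599). Both alleles lay above the 0.815 from all reads, a gap past the limit of 0.1, so this event was not open to a call.

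**Figure D3:**
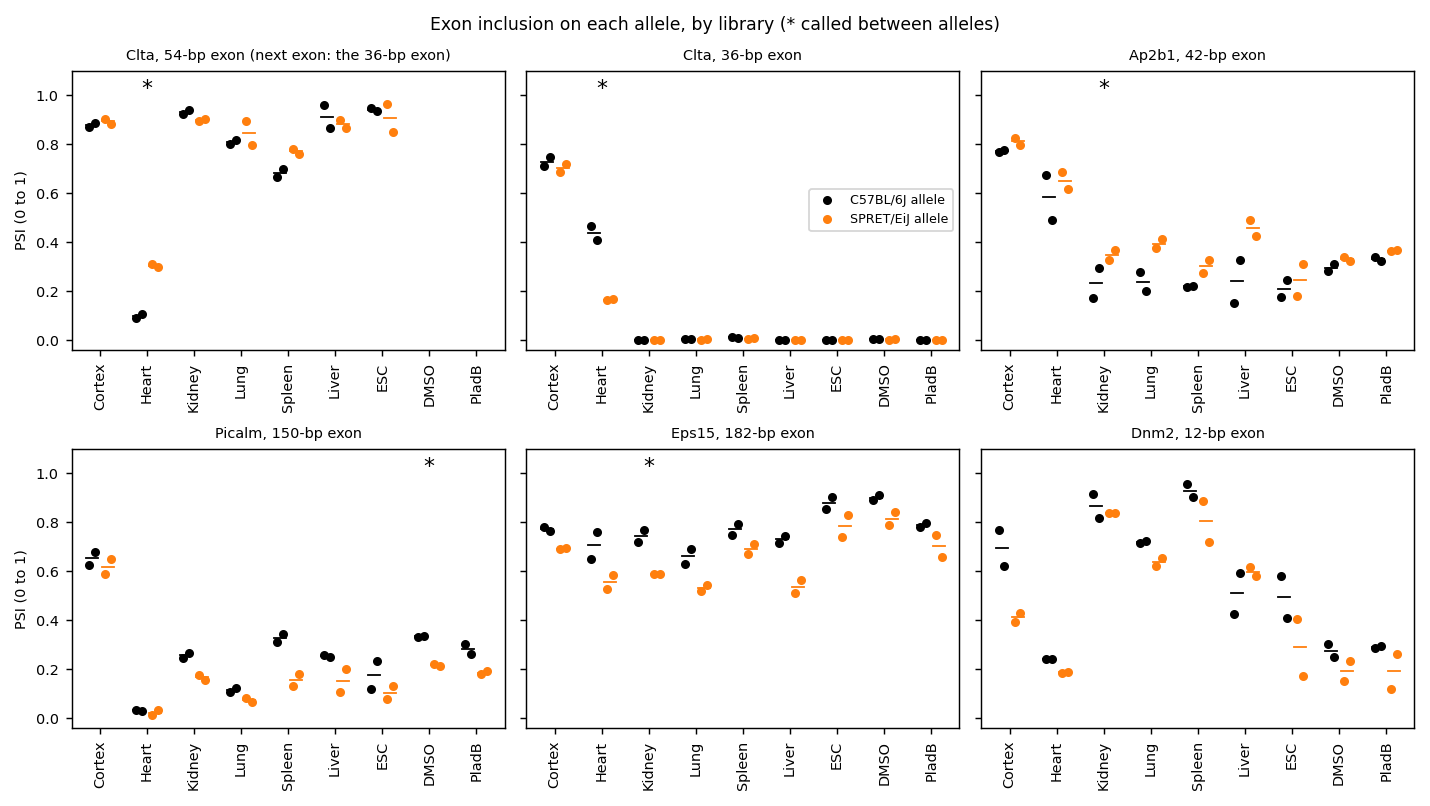
PSI (0 to 1) of 6 member exons on the C57BL/6J allele (black) and the SPRET/EiJ allele (orange) in each library, with bars for the mean of 2 libraries and an asterisk where the alleles were called; an empty position means under 20 reads on an allele or an event not listed. The alleles of the 36-bp exon of Clta are 0.271 apart in Heart, and the 182-bp exon of Eps15 is higher on C57BL/6J in all 18 libraries.

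Allelic differences ran in the same direction through all groups for an exon each of Eps15 and Ap2b1. The 182-bp exon of Eps15 was higher on C57BL/6J in 18 of 18 libraries, by 0.080 to 0.193 in the group means. It was called in Kidney alone, at 0.720 and 0.769 on C57BL/6J and 0.591 and 0.588 on SPRET/EiJ (difference 0.155, quasi-binomial adjusted p = 0.00185). In Liver the difference was 0.193 with an adjusted p of 0.0622, and of 0.0396 when both alleles of a library were paired.

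The 42-bp exon of Ap2b1 was lower on C57BL/6J in 18 of 18 libraries, by -0.219 to -0.033 in the group means. It was called in Kidney, at 0.170 and 0.294 on C57BL/6J and 0.328 and 0.366 on SPRET/EiJ (difference -0.115, quasi-binomial adjusted p = 0.0209). In Lung the difference was -0.155, with an adjusted p of 0.0839 that became 0.0149 when alleles were paired within a library. Libraries from the same animals share genotype, so the groups are not independent of each other.

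The 150-bp exon of Picalm was higher on C57BL/6J in 17 of 18 libraries. In DMSO fibroblasts it had 0.331 and 0.338 on C57BL/6J against 0.223 and 0.212 on SPRET/EiJ (difference 0.118, quasi-binomial adjusted p = 1.07e-16). In Spleen the difference was 0.172 (adjusted p = 1.13e-05), but the alleles together gave 0.236 and all reads 0.354, a gap past the limit of 0.1, and it was not called. The 12-bp exon of Dnm2 was higher on C57BL/6J in 16 of 18 libraries, with the widest gap in Cortex (0.283, adjusted p = 0.117). In ESC that exon had a difference of 0.205, with an adjusted p of 0.974 and, with alleles paired within a clone, 0.0271. The pairing raised the calls over all events in ESC from 56 to 631.

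In fibroblasts, 4 h of pladienolide B lowered the inclusion of far more exons than it raised, and the share of member events called was near that of all events. Of 108 member events tested, 7 (6.48%) were called, 6 lower and 1 higher, against 8.7% of all 54535 events, of which 8.5% were lower and 0.191% higher. The median change was -0.00131 for members and -0.00524 for all events. Among the other pathway genes 30 of 322 events were called and all 30 were lower. The called member events lay on 6 exons of Picalm, Bin1, Itsn1 and Eps15.

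The 24-bp micro-exon of Picalm was the clearest. It had PSI 0.823 and 0.831 under DMSO and 0.475 and 0.447 under PladB, a fall of 0.366 (quasi-binomial adjusted p = 1.42e-206). These values rest on 3134 reads or more in each library. The 150-bp exon of the same gene moved from 0.311 and 0.306 to 0.273 and 0.255, a change of -0.044 (adjusted p = 8.44e-04) that was under the size limit.

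In Itsn1, the 46-bp exon (chr16:91861194-91861239) fell from 0.916 in each DMSO library to 0.606 and 0.697 under PladB (difference -0.264, quasi-binomial adjusted p = 5.81e-05). The 167-bp exon before it (chr16:91858209-91858375) fell from 0.935 and 0.943 to 0.779 and 0.823 (difference -0.138, adjusted p = 0.00168), and by 0.079, under the size limit, when PSI was computed without effective lengths. Both are read against the same skipping junction. The groups did not overlap for either exon in these events. Other events of both exons did not change. With the 167-bp exon as its upstream flank, the 46-bp exon had 0.999 and 1.000 under DMSO and 1.000 in each PladB library (quasi-binomial adjusted p = 0.795). With the 46-bp exon as its downstream flank, the 167-bp exon had 0.956 and 0.972 under DMSO and 0.954 and 0.984 under PladB (adjusted p = 0.796). Against its farthest downstream flank the change was -0.004 (adjusted p = 0.803).

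The 182-bp exon of Eps15 fell from 0.866 and 0.90 to 0.788 and 0.756 (difference -0.111, quasi-binomial adjusted p = 0.00306), and its 120-bp form from 0.711 and 0.773 to 0.598 and 0.574 (difference -0.156, adjusted p = 0.0154). Both calls were lost without DMSO replicate 2, at adjusted p-values of 0.0591 and 0.159, and without PladB replicate 2, at 0.147 and 0.21.

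The 72-bp exon of Bin1 gave opposite answers in different events. Against its farther flanks on both sides, it fell from 0.987 and 0.948 to 0.622 and 0.462 (difference -0.426, quasi-binomial adjusted p = 2.17e-04), on 24 and 34 PladB reads. In the event whose upstream flank is the 129-bp exon, PSI rose from 0.714 and 0.690 to 0.952 and 0.958 (difference 0.253, adjusted p = 0.0407), on 30 and 35 PladB reads. The inclusion reads of this event hold a junction shared with transcripts that lack the 129-bp exon, whose own PSI was 0.110 and 0.143 under DMSO and 0.037 and 0.059 under PladB (difference -0.078, adjusted p = 0.0154, under the size limit). The rise was lost without any 1 of the 4 libraries, at adjusted p-values of 0.0792 (without DMSO replicate 1), 0.127 (without DMSO replicate 2), 0.127 (without PladB replicate 1) and 0.217 (without PladB replicate 2). In the event of this exon with most reads, PSI was 0.257 and 0.259 under DMSO and 0.270 and 0.247 under PladB (adjusted p = 0.986).

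**Figure D4:**
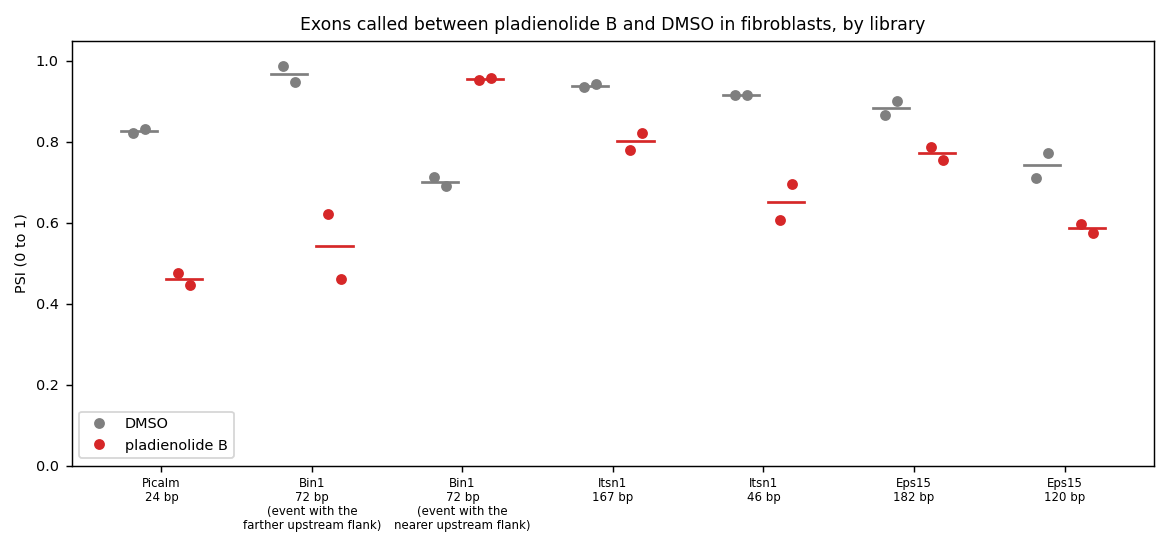
PSI (0 to 1) of the 7 member events called between DMSO (grey) and pladienolide B (red) in fibroblasts; points are libraries and bars are means of 2. All fall except the Bin1 72-bp event with the nearer upstream flank, and the 24-bp exon of Picalm falls by 0.366.

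Some exons that were high in Cortex were nearly absent from fibroblasts under both conditions: the 54-bp exon of Cltb, the 21-bp exon of Ap1b1, and both exons of Clta read against direct splicing of their outer flanks, had PSI of at most 0.008 in each of the 4 libraries. Other exons that were high in Cortex were used there: under DMSO the 42-bp exon of Ap2b1 had PSI 0.339 and 0.323, the 12-bp exon of Dnm1 0.239 and 0.244, and the 24-bp and 150-bp exons of Picalm and the 72-bp and 129-bp exons of Bin1 the values given above. Introns gave little to compare. Only 2 introns of the 10 genes were tested for retention, 1 of Dnm1 and 1 of Eps15, and the quasi-binomial model called neither at an adjusted or unadjusted p under 0.05, against 38.3% of all introns tested. The allelic difference did not detectably depend on the treatment for any of 35 member events in the interaction test of the same model. Among them 3 had an unadjusted p under 0.05, the largest difference was 0.096, and 0.0515% of all events were called.

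The expression level of all 10 genes differed between tissues, as it did for 98.9% of genes in limma's test on log2(TPM + 0.1). In Cortex 7 of the 10 were called higher, with a difference of at least 1 on this log2 scale, and none lower, against 35.1% of all genes called higher, 20.3% lower and 55.4% in either direction. The median difference was 1.83 for the members and 0.37 for all genes tested. Among 51 rows of the 49 other pathway genes, 26 were called higher and 4 lower. Quantile normalization, which moved the median of all genes to -0.36, gave 6 members higher and 1 lower.

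Dnm1 had the widest range, with 688 and 755 TPM in Cortex, at most 13 TPM in the other tissues and 0.141 and 0.119 TPM in Liver. The log2 difference of Cortex was 7.73 ± 0.20 (SE, limma adjusted p = 3.87e-10). Dnm2 had the opposite standing, with 36.6 and 36.2 TPM in Cortex, below 10 of the 12 other libraries, and 115 and 108 TPM in ESC. Its Cortex difference of -0.82 ± 0.07 was under the size limit and was -1.43, past it, after quantile normalization.

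Bin1 had 277 and 283 TPM in Cortex and 199 and 133 TPM in Spleen, while Heart had 9.5 and 10.3 TPM (Cortex difference 3.23 ± 0.28). Itsn1, at 31.3 and 31.8 TPM, Eps15, at 138 and 140 TPM, and Ap2b1, at 133 and 155 TPM, were also highest in Cortex, by 2.28 ± 0.16, 2.28 ± 0.12 and 2.00 ± 0.15. Of the light chains, Cltb was higher in Cortex (83.2 and 88.6 TPM, at most 53.3 TPM elsewhere, 1.66 ± 0.07). Clta was also above the mean of the other tissues, by 0.68 ± 0.10 (limma adjusted p = 1.81e-04), under the size limit, with 214 and 228 TPM in Cortex and 252 and 353 TPM in ESC.

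Ap1b1, with 112 and 118 TPM in Cortex, passed the size limit narrowly (1.02 ± 0.06) and did not after quantile normalization (0.66) or without Cortex replicate 2 (0.98). Picalm had 134 and 137 TPM in Cortex and the highest level in Kidney, at 200 and 190 TPM. Its Cortex difference of 0.33 ± 0.08 (limma adjusted p = 0.00348) was under the size limit and was 0.00 after quantile normalization.

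**Figure D5:**
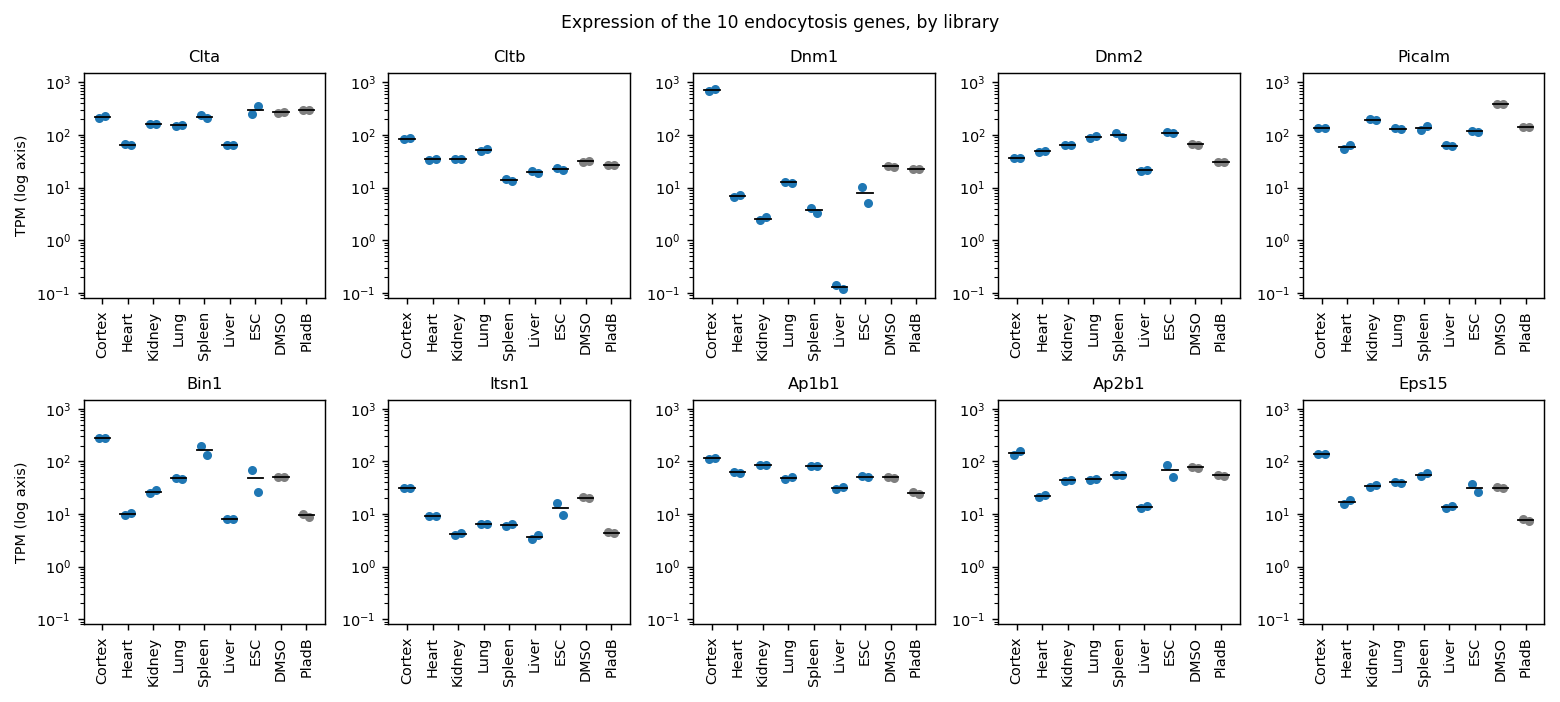
TPM (log axis) of the 10 genes in each library; points are libraries, bars are group means, blue marks the 7 tissues and grey the fibroblasts. Dnm1 spans 0.119 TPM in a Liver library to 755 TPM in a Cortex library, while Dnm2 is lowest in Liver and Cortex.

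In fibroblasts, pladienolide B changed the share of nearly all genes in the pool: 89.1% were called in limma's test, 73.5% lower and 15.6% higher, and the median log2 change of all genes was -1.17. All 10 members were called, 9 lower and 1 higher, with a median of -1.07. Bin1 fell by 2.44 ± 0.08 (SE), from 51.4 TPM in each DMSO library to 10.1 and 8.71, and Itsn1 fell by 2.19 ± 0.06, from 21.1 and 19.9 to 4.44 and 4.39. Eps15 fell by 2.03 ± 0.06 and Picalm fell by 1.46 ± 0.03, and these 4 genes lay below the median of all genes, by -1.28, -1.02, -0.86 and -0.29.

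Clta, at 268 and 275 TPM under DMSO and 302 TPM in each PladB library, changed by 0.15 ± 0.03, which is 1.32 above the median of all genes. Cltb (-0.23), Dnm1 (-0.16) and Ap2b1 (-0.50) fell on the deposited scale but lay 0.94, 1.00 and 0.67 above that median. Their direction turned after quantile normalization, to 0.87, 1.03 and 0.11. Dnm2 (-1.12) and Ap1b1 (-1.02) lay within 0.15 of the median. TPM values give shares of an RNA pool, so a change in total RNA per cell cannot be told apart from a change of single genes. After quantile normalization 8 of the 10 genes were called, 3 higher and 5 lower. The smallest of these changes also rested on single libraries: the limma adjusted p of Clta was 0.0623 without DMSO replicate 1, that of Cltb was 0.0784 without DMSO replicate 2, and that of Dnm1 was 0.192 without DMSO replicate 1, 0.0833 without DMSO replicate 2, 0.0597 without PladB replicate 1 and 0.0606 with replicates paired.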

How the data were processed

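RNA-seq was taken from 18 libraries in 9 groups of 2. Per the labels and methods, the authors aligned reads with HISAT2 version 2.0.1 to mm10 and a SPRET/EiJ genome and counted splice junctions with rMATS. The deposited splicing tables hold inclusion and skipping junction read counts for each library and allele, and a score for the effective length of each form (75 for the skipping form in the tissues, 149 in fibroblasts). The deposited expression table holds TPM by the authors. Columns with the authors' p-values, FDR and differences were not used. PSI was computed from the counts and lengths of autosomal events with 20 or more reads. A quasi-binomial model, with dispersions moderated by limma 3.58.1 in R 4.3.3 and never below 1, was fitted across all events, with Benjamini-Hochberg adjustment, and checked on simulated data. Proportions fitted at 0 or 1 added no residual degrees of freedom, a rule set after the first paired fits were seen. TPM were tested with limma as log2(TPM + 0.1), for genes with 1 TPM or more in at least 2 libraries. The position of a value within a cell of the tables was taken as the replicate number.

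Exons with a switch score of 0.3 or more, those called between alleles and the 10 largest calls after treatment were described in full; where events share an exon, the event with most reads among those tested over the tissues represents it. The members and lists were chosen with earlier results of these data known. Both alleles of a library are paired by construction: over 9 groups their deviations from the group means correlated at 0.0501 to 0.477, above 0.1 in 7. Other settings tried were PSI without effective lengths, 40 reads, a prior without depth trend, no filter on allelic against all reads, a replicate block, quantile normalization, a pseudocount of 1, and each library left out in turn.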

Additional observations from a re-analysis of the deposited data

Results flagged for a closer look

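In the event of the 54-bp exon of Clta whose downstream flank is the 36-bp exon, the allelic difference ran in opposite directions in Heart and Kidney. In Heart it was -0.206 (C57BL/6J minus SPRET/EiJ), negative in both libraries, and in Kidney it was 0.034, positive in both libraries, at 0.921 and 0.939 on C57BL/6J and 0.893 and 0.901 on SPRET/EiJ. The Kidney values rest on 55 to 66 reads per allele and library and were not called (quasi-binomial adjusted p = 0.751). The difference between the tissues was not tested. A gap of over 0.02 in each library of the second tissue was required here, a limit chosen after the data were seen.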

How the results depend on the processing

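Of 190 recomputed counts of member events or genes, 174 stayed within 1.5 times the reported count, and of 1356 recomputed values of single exons and genes, 1322 kept their direction and their side of the limits, 26 lost their call, 5 gained one and 3 reversed. The reversed values were the treatment changes of Cltb (0.87), Dnm1 (1.03) and Ap2b1 (0.11) after quantile normalization. Without effective lengths, the 36-bp exon of Clta lost its call between alleles in Heart, where 1 member event stayed called. In PladB 1 was called between alleles in this setting. The fall of the 182-bp exon of Eps15 under pladienolide B was then 0.066 in size, under the limit. Without the filter on allelic against all reads, 1 was called in Spleen and 1 in Liver. With alleles paired by a replicate block, 1 each was called in Lung, Liver and ESC, and the block changed no other count between alleles by over 1.5 times.

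Leaving out 1 library gave 22 to 24 events called over tissues, 17 to 18 in Cortex, 9 to 13 in Heart and 4 to 7 after pladienolide B. Between alleles, a fit on 1 library has no residual degrees of freedom, so only sizes of 0.1 or more were counted: 1 to 2 in Cortex, 5 to 7 in Heart, 1 to 4 in Lung, 1 to 3 in Liver, 3 to 7 in ESC, 5 to 7 in DMSO and 2 to 4 in PladB. For TPM the counts were 10 over tissues, 6 to 7 in Cortex and 8 to 10 after treatment.

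The labels do not say whether a replicate number marks 1 animal. Over 21 pairs of tissues the correlation of same-numbered deviations was -0.101 to 0.064 for PSI, above 0.1 in none, and -0.081 to 0.296 for TPM, above 0.1 in 6, and between DMSO and PladB it was -0.00156 for PSI. With 2 libraries a group, small differences are not detectable, and allelic values of Dnm1 outside Cortex, of Bin1 under pladienolide B and of Clta events with the 36-bp exon rest on few reads.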

Other observations

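The share of junction reads on member events that came from the C57BL/6J allele was near balance for most genes, counted over all events of a gene, so that a read shared by several events counts more than once. The median over the libraries was lowest for Dnm1 (46.4%) and highest for Itsn1 (53.8%). Picalm stayed between 47% and 59.7% in all libraries. The widest range was that of Dnm1, from 30.3% to 91.7% over the libraries with 20 or more reads, with both extremes (an ESC and a Spleen library) on few reads, and 37.4% and 37.6% in the DMSO fibroblasts. The range of Ap2b1 was 36.9% to 59.3%, that of Eps15 38.5% to 62% and that of Bin1 43.2% to 65.2%. These shares depend on which junctions cover a variant, and no difference between groups was tested.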
